A study of Mus musculus with 2 samples.

Results

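Neuromuscular junction myonuclei are the nuclei of a muscle fibre that lie under the motor nerve ending. They were described here in single-nucleus RNA sequencing of plantaris and gastrocnemius, a pair of calf muscles, from C57BL/6 mice aged 12 weeks, with 1 library per muscle. The labels name no treatment and no genetic change for either muscle, and they give neither the number nor the sex of the mice. Nuclei were released from minced muscle by bead homogenisation, stained with the DNA dye PI, sorted and loaded on 10x Chromium droplets, so the sort selected for DNA content and not for cell type. A nucleus was taken as a junction nucleus when it held at least 1 UMI (1 counted transcript) of at least 3 of the 6 genes Chrne, Colq, Ufsp1, Musk, Etv5 and Chrna1, and at least 3 UMIs over Myh1, Myh2, Myh4 and Myh7, which encode the myosins of the adult fibre types. The rule found 59 nuclei in plantaris and 41 in gastrocnemius, 100 of the 16530 nuclei in both libraries. They were set against the other nuclei of the same muscle with at least 10 Myh UMIs, 4394 in plantaris and 3618 in gastrocnemius.

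A skeletal muscle fibre holds many nuclei in a shared cytoplasm, and those beneath the nerve ending are known to transcribe the genes of the synapse. The nerve releases agrin, which acts through Lrp4 and the receptor tyrosine kinase MuSK to cluster acetylcholine receptors, while ETS transcription factors such as Etv5 and GABP are known to act in synaptic nuclei. The adult receptor is made of alpha, beta, delta and epsilon subunits, and the epsilon subunit (Chrne) takes the place of the fetal gamma subunit (Chrng) during maturation. In the synaptic cleft acetylcholinesterase is anchored to the basal lamina by the collagen tail ColQ, and electrical activity is known to keep synaptic genes low in the rest of the fibre. A short element called the N-box, CCGGAA, binds ETS factors in synaptic promoters, and E-boxes, CANNTG, bind myogenic factors such as MyoD.

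The promoters of 4 synaptic genes are shown because their products make up or organise the receptor whose transcripts define these nuclei. Of 29 genes looked for, 21 had an entry in the RefSeq table of the GRCm38.p6 assembly, which gives 250 bases before and 50 after each gene's start, 5′ to 3′ on the gene's own strand. Capitals mark N-boxes (CCGGAA or its reverse complement TTCCGG) and E-boxes (CANNTG, which reads as the same pattern on both strands). No N-box overlapped an E-box in these 4. The regions are chr11:70619145-70619444 (minus strand) for Chrne, chr2:73580289-73580588 (minus strand) for Chrna1, chr11:69795888-69796187 (minus strand) for Chrnb1 and chr4:58285712-58286011 (plus strand) for Musk.
Chrne: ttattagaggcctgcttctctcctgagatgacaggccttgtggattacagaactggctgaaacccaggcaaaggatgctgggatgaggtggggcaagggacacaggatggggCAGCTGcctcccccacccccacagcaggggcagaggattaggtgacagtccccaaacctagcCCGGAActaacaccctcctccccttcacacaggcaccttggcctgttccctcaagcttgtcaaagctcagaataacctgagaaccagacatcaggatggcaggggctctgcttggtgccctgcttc
Chrna1: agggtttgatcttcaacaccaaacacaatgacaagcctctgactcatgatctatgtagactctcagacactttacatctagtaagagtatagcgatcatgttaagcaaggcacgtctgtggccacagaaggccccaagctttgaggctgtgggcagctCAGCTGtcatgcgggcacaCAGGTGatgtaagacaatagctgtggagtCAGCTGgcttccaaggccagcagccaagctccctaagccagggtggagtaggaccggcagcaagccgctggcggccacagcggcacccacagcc
Chrnb1: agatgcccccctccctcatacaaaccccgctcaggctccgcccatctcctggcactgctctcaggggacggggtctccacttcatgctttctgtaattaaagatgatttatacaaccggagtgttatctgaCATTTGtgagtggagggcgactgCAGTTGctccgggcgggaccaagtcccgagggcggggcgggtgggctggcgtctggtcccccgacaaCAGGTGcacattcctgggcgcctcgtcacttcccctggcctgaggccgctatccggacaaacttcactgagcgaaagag
Musk: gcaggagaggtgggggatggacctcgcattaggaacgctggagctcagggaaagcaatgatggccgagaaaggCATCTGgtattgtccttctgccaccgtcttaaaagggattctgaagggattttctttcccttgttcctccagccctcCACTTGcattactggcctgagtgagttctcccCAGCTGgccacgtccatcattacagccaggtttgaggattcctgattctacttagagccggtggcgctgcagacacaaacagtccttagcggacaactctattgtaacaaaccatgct

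Chrne, the epsilon subunit, held 1 N-box whose first base lay at -76 from the start and 1 E-box, CAGCTG, at -138. Chrna1, the alpha subunit, held CAGCTG at -92, CAGGTG at -73 and CAGCTG at -44, and no N-box. Chrnb1, the beta subunit, held E-boxes at -119, -96 and -29, and Musk, the kinase, at -177, -100 and -68. Among the 21 genes, 1 held an N-box and 18 held an E-box in at least 1 promoter, and some genes had several promoters. Of all 32851 promoters in the table, 14.9% held an N-box, 72.3% an E-box and 9.33% both. These shares are per promoter and not per gene, so the counts of genes cannot be set against them. These matches are a description of the letters and not of bound sites.

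The 6 genes that chose the nuclei differed in how much they set junction nuclei apart. Their values describe the choice and test nothing. Chrne averaged 522 CPM (UMIs per 1000000 UMIs of the group) in plantaris junction nuclei and 3.99 CPM in the other nuclei, and 328 against 3.11 CPM in gastrocnemius. It was detected in 53 of 59 and 25 of 41 junction nuclei. Etv5, the ETS factor, was at 741 against 3.28 CPM in plantaris and 632 against 2.12 CPM in gastrocnemius. Colq was at 438 against 0.808 CPM in plantaris and at 1071.4 against 2.05 CPM in gastrocnemius. Colq was therefore lower in plantaris than in gastrocnemius junction nuclei, in the order opposite to Chrne.

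Ufsp1, a protease of the UFM1 protein-modification pathway, was at 250 against 1.06 CPM in plantaris and 217 against 1.44 CPM in gastrocnemius. The Ufsp1 gene starts 162 bases beyond the end of Ache on the same strand of chromosome 5 (GENCODE vM21, GRCm38), so reads that run past Ache could be counted to it. Chrna1 gave 15 UMIs in 11 plantaris junction nuclei and 5 UMIs in 5 gastrocnemius junction nuclei, against 0.152 and 0 CPM in the other nuclei. Musk was the least particular of the 6, at 1805.8 against 334 CPM in plantaris and 2049.9 against 668 CPM in gastrocnemius. It was detected in 54.7% and 74.0% of the other nuclei of plantaris and gastrocnemius. In mesenchymal nuclei of the same libraries, which should lack it, Musk was detected in 13.8% of plantaris and 17.3% of gastrocnemius nuclei, and Chrne in 0.230% and 0.794%. Those nuclei had median depths of 1964.5 and 1599 UMIs, below the 4294 and 3110 of junction nuclei and the 3995 and 3435 of the other nuclei.

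Each of these genes stayed more than 2-fold higher when it took no part in the choice. When junction nuclei were chosen on at least 3 of the other 5 genes, the log2 ratio of junction over other nuclei was 7.09 for Chrne in plantaris and 6.39 in gastrocnemius. The same ratio was 7.98 and 7.78 for Colq, 7.47 and 7.41 for Etv5, and 7.87 and 6.92 for Ufsp1. It was 2.62 and 1.89 for Musk, and 7.66 and at least 7.09 for Chrna1, whose 0 count in gastrocnemius was set to 3.

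The plantaris held 121 nuclei with 2 of the genes, 17 with 3 and 42 with 4 or more, and the gastrocnemius 95, 14 and 27. Chrne was at 118 CPM in plantaris nuclei with 2, at 192 CPM in those with 3 and at 677 CPM in those with 4 or more. Ano4, which the rule did not use, was at 127, 1433.1 and 2918.4 CPM in plantaris and at 56.6, 1200.3 and 3278.7 CPM in gastrocnemius. Ache was at 4.49, 76.9 and 250 CPM in plantaris. Genes with few UMIs did not keep this order, and Etv4 was at 2.99, 76.9 and 45.5 CPM in plantaris and Chrna1 at 5.39, 0 and 49.7 CPM in gastrocnemius.

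The label was checked on 6 genes outside the rule that have been reported in junction nuclei, namely Ano4, Lrfn5, Pdzrn4, Gramd1b, Vav3 and Phldb2. This subset was picked after its values had been seen, from the 11 genes that earlier surveys or the account of the whole series had linked to junctions. It leaves out 3 members with few or no UMIs in junction nuclei, namely Kcnh7 with 0 in both muscles, Kcnip4 with 2 in plantaris and 0 in gastrocnemius, and Fam155a with 10 and 0. Kcnh7 went the other way and was called lower, against 34.3 CPM in the other nuclei of plantaris and 38.7 CPM in those of gastrocnemius. It also leaves out Ryr3 and another member, so the check covers a picked part of the list and is no test of the label. At least 3 of them were detected in 48 of 59 plantaris junction nuclei (81.4%) and 38 of 41 gastrocnemius junction nuclei (92.7%), against 0.797% and 0.249% of the other nuclei. The median junction nucleus held 5 of the 6 in both muscles, and the median other nucleus held 0 in both. Of the nuclei just outside the rule, with 2 of its genes, 8.26% in plantaris and 8.42% in gastrocnemius held at least 3. All junction nuclei also held titin (Ttn), with 21 to 1475 UMIs each in plantaris. Junction nuclei made up 0.908% of the 6495 plantaris nuclei with 3 or more Myh UMIs (exact binomial 95% interval 0.692 to 1.17) and 0.734% of the 5584 in gastrocnemius (0.527 to 0.995). With every nucleus thinned to 2000 UMIs and shallower ones left out, the shares were 0.651% and 0.766%, so the order of the muscles turned round and the shares cannot be told apart at this depth.

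**Figure D1:**
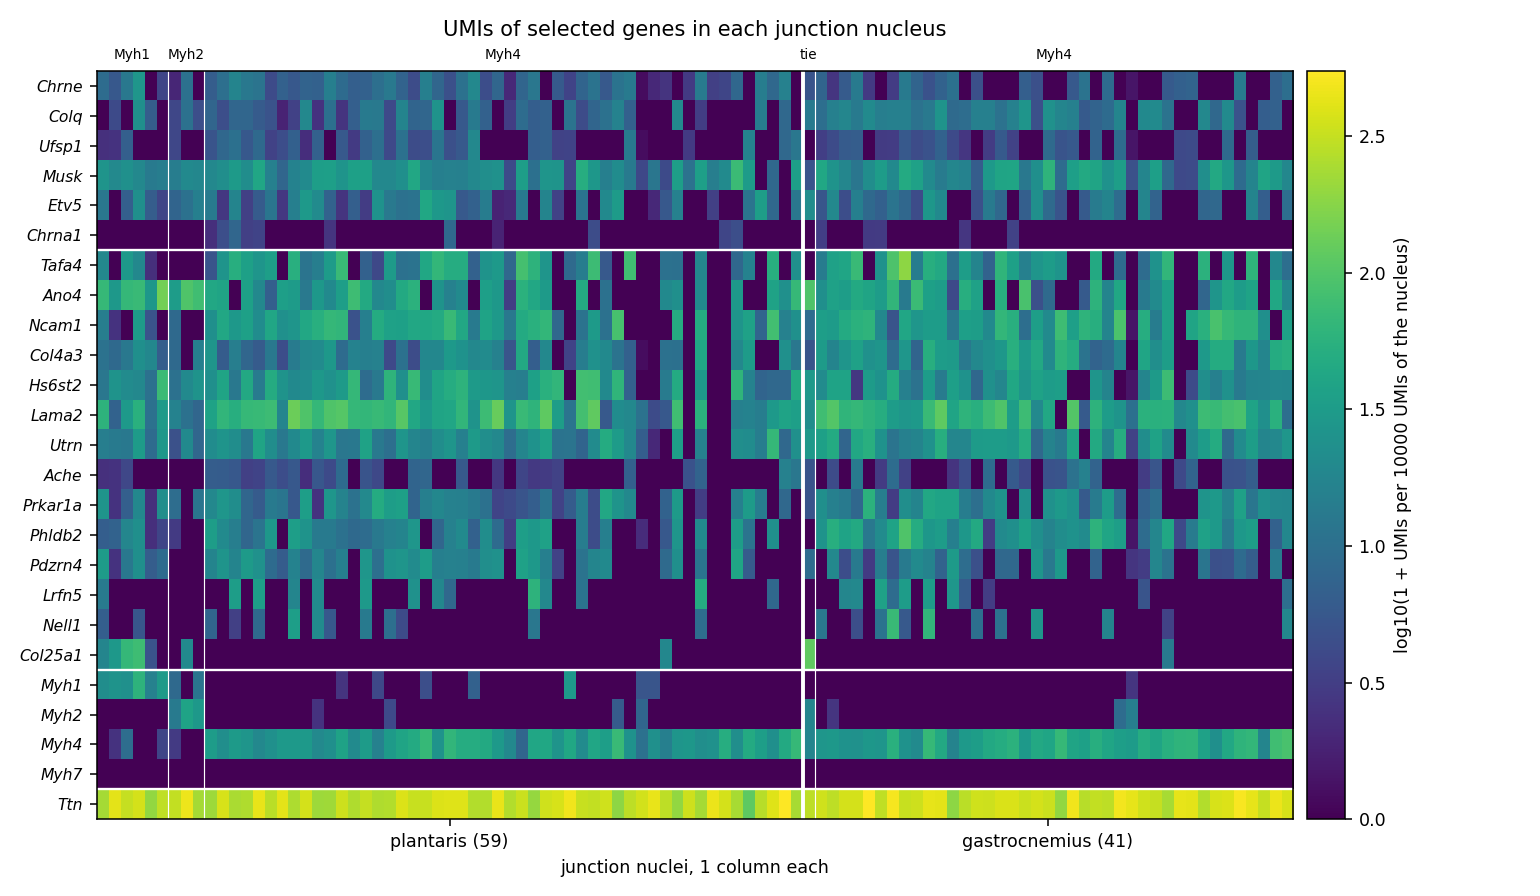
Heat map of 25 genes (rows) in the 59 plantaris and 41 gastrocnemius junction nuclei (columns, sorted by most abundant Myh transcript); colour is log10 of 1 plus UMIs per 10000 UMIs of the nucleus. The top 6 rows chose the nuclei. Musk, Lama2 and Ttn fill nearly all columns, Lrfn5 and Nell1 a minority, and Col25a1 mainly those led by Myh1 or Myh2 and the gastrocnemius nucleus with a tie.

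Depth and composition set the precision. The libraries held 29248275 UMIs in plantaris and 19048595 in gastrocnemius, of which junction nuclei held 323958 and 161468. Junction nuclei had 885 to 41499 UMIs in plantaris and 1131 to 23914 in gastrocnemius. The deepest plantaris junction nucleus held 12.8% of the junction UMIs there, 3 of the 6 rule genes and 50 UMIs of mesenchymal markers, and the deepest in gastrocnemius held 14.8%, 3 rule genes and 17 such UMIs. Schwann cell markers gave 2 UMIs in each muscle, with Sox10, Ngfr, S100b, Mbp and Prx at 0, and the 5 endothelial markers gave 0 UMIs in plantaris and 1 in gastrocnemius. The 6 mesenchymal markers summed to 318 against 175 CPM in plantaris and 217 against 79.7 CPM in gastrocnemius, at 0 to 50 UMIs per plantaris and 0 to 17 per gastrocnemius junction nucleus. Macrophage markers summed to 123 against 35.9 CPM and 198 against 24.3 CPM. Ptprc among them was at 0 UMIs in both muscles, and most of these UMIs were of Mrc1, with 32 of 40 in plantaris and 29 of 32 in gastrocnemius. Mural cell markers, among them Abcc9, summed to 358 against 431 CPM and 347 against 430 CPM, so the other nuclei held them as well. At least 2 UMIs of 1 other cell type were held by 25 plantaris and 16 gastrocnemius junction nuclei. Mural cell markers reached 2 UMIs in 22 and 8 of the junction nuclei, mesenchymal markers in 6 and 5 and macrophage markers in 6 and 7. The count thus rests largely, in plantaris, on markers that were not higher in junction nuclei, and it does not measure nuclei of other cells. No doublets were removed, and the part of these nuclei in the results was not tested beyond leaving them out. The libraries shared 17 barcode sequences, none of a junction nucleus.

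Against the other nuclei, 315 of 11033 genes measured (2.86%) were more than 2-fold higher in junction nuclei of both muscles and 82 (0.743%) were more than 2-fold lower, counting a gene when its exact 95% interval lay off 0 in each muscle. Without the rule genes and the Myh genes, 310 were higher and 82 lower. A gene was measured with 20 or more UMIs over junction and other nuclei in each muscle, and 31 of the 315 reached this only through their junction UMIs. Among them were B4galnt3, Rps6ka1, Tbx21, Gm13387, Lrfn5, Nell1, Cfap54 and Gdnf. Of the 10955 genes with 20 or more UMIs in the other nuclei alone of each muscle, 284 were higher. With 1 library per muscle there was no test, and the intervals cover counting error only. The nuclei were chosen within this contrast, so these ratios are a description. The median log2 ratio was -0.03 in plantaris and -0.06 in gastrocnemius over the 3684 genes with at least 5 expected UMIs in junction nuclei, and 47.5% and 45.5% of these lay above 0. Lists of synaptic genes were described by the same counts, to be read beside the 2.86% higher and 0.743% lower over all genes measured.

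**Figure D2:**
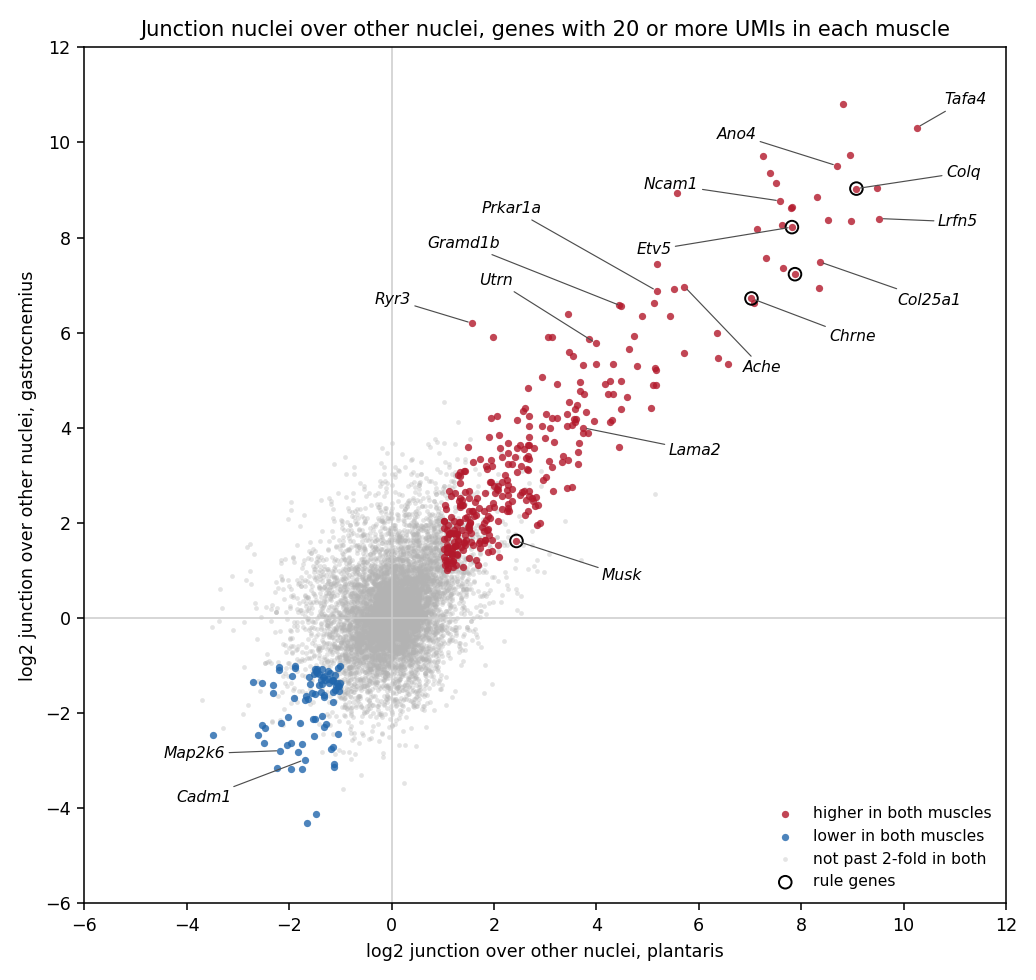
Log2 ratio of junction over other nuclei in plantaris (x) and gastrocnemius (y) for each gene with 20 or more UMIs in each muscle; circles mark 5 of the rule genes, since Chrna1 had fewer UMIs. The 315 genes higher in both muscles include Tafa4, at 10.26 in plantaris and 10.31 in gastrocnemius, and the 82 lower ones stay nearer to 0. Genes with 0 UMIs in a group and no bound are not drawn.

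Of the receptor and its clustering machinery, few genes apart from the rule genes passed. Chrnb1 was at 102 against 40.4 CPM in plantaris, a log2 ratio of 1.33 (95% interval 0.78 to 1.84), and at 155 against 21.8 CPM in gastrocnemius, a ratio of 2.83 (2.18 to 3.42). It was thus detected more often in the other nuclei, 15.1% in plantaris and 7.35% in gastrocnemius, than Chrne, at 1.27% and 0.995%. Chrnd, the delta subunit, gave 19 UMIs in 15 plantaris junction nuclei and 2 UMIs in 2 gastrocnemius junction nuclei, against 0.152 and 0 CPM in the others, too few to be measured in both muscles. The fetal subunit Chrng gave 1 UMI in plantaris and 0 in gastrocnemius.

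Lrp4, the agrin receptor, was at 259 against 40.7 CPM in plantaris, a log2 ratio of 2.67 (2.33 to 3.0), and at 198 against 18.8 CPM in gastrocnemius, 3.40 (2.82 to 3.93). Dok7, the adaptor that activates MuSK, and Rapsn, the scaffold that binds receptors, did not pass. Dok7 was at 15.4 against 28.8 CPM and 24.8 against 22.0 CPM, and Rapsn at 24.7 against 24.1 CPM and 12.4 against 19.2 CPM. These rest on 2 to 8 junction UMIs per muscle. The upper ends of the intervals were 0.33 and 1.54 for Dok7 and 1.03 and 1.24 for Rapsn, so a 2-fold higher level lay within the interval except for Dok7 in plantaris. Agrn, whose neural form comes from the nerve, gave 3 UMIs in plantaris and 0 in gastrocnemius. Of the 11 measured genes of this list 2 were higher (Musk and Lrp4) and 0 lower. Musk is a rule gene, and without it 1 of 10 was higher.

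Among genes of the synaptic cleft, acetylcholinesterase and several basal lamina chains were higher. Ache was at 194 against 3.69 CPM in plantaris, 5.72 (5.21 to 6.23), and 266 against 2.12 CPM in gastrocnemius, 6.97 (6.25 to 7.71). Prima1, the membrane anchor of the enzyme, did not pass, at 9.26 against 19.5 CPM and 18.6 against 29.0 CPM. Of 17 measured genes of basal lamina and adhesion 8 were higher and 0 lower. Over 3 of them with enough expected UMIs the median log2 ratio was 0.97 in plantaris and 1.67 in gastrocnemius.

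Collagen IV chains divided by type. Col4a3 was at 1123.6 against 5.05 CPM in plantaris (7.80) and 2204.8 against 5.61 CPM in gastrocnemius (8.62). Col4a4, whose start lies 71 bases from that of Col4a3 on the opposite strand of chromosome 1, was at 185 against 7.43 CPM (4.64) and 260 against 5.16 CPM (5.66). Col4a5 followed at 4.22 and 4.71. These 3 chains are known to form a heterotrimer in basement membranes such as those of the kidney glomerulus. Col4a1, a chain of the widespread collagen IV, did not pass, at 98.8 against 54.1 CPM in plantaris (0.87, interval 0.31 to 1.37) with 20 of its 32 junction UMIs in 1 nucleus.

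Of the laminins, Lama2, the alpha2 chain, was at 4698.1 against 350 CPM in plantaris (3.74) and 4762.6 against 297 CPM in gastrocnemius (4.0), with a median of 16 and 19 UMIs per junction nucleus. Lamb2, the synaptic beta2 chain, was at 74.1 against 15.1 CPM (2.30, interval 1.63 to 2.90) and 31.0 against 6.52 CPM (2.25, 0.59 to 3.53). The transmembrane collagen Col13a1, which is concentrated at the junction, was at a log2 ratio of 6.37 in plantaris and 5.46 in gastrocnemius. Ncam1, a cell adhesion molecule that denervated fibres express along their length, was at 2349.1 against 12.2 CPM (7.59) and 3084.2 against 7.05 CPM (8.77). It was detected in 47 of 59 and 39 of 41 junction nuclei. Of the other 6 measured genes of the denervation list, none passed in both muscles, and Myog and Chrng had too few UMIs to be measured.

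Lama2 and Mrc1 are also markers of other cells. Lama2 was held by 56 of 59 and 40 of 41 junction nuclei. It was at 4.05 and 4.27 once junction nuclei with 2 or more UMIs of another cell type were left out, with the other nuclei unfiltered. Mrc1, a macrophage receptor, was at 98.8 against 9.15 CPM in plantaris and 180 against 9.17 CPM in gastrocnemius, in 15 and 16 junction nuclei with at most 11 and 6 UMIs each.

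In the complexes that link the membrane to the cytoskeleton, utrophin and dystrophin lay on opposite sides of 0. Utrophin (Utrn), known to sit at the receptor-rich crests of the folds, was at 1528.0 against 96.4 CPM in plantaris (3.99, interval 3.84 to 4.13) and 2266.7 against 41.4 CPM in gastrocnemius (5.78, 5.58 to 5.97). Dystrophin (Dmd), found along the whole fibre, was at 7893.0 against 14321.9 CPM (-0.86) and 10008.2 against 17936.3 CPM (-0.84), short of the 2-fold limit. Sntb2, a syntrophin enriched at the synapse, was higher at 3.01 and 4.29, while Sntb1 was lower at -2.32 and -1.41. Dtna, which encodes alpha-dystrobrevin, was higher at 1.2 and 1.07, and Ank3, ankyrin G, at 1.80 and 1.83. Of 13 measured genes 4 were higher and 2 lower, and the median over 12 was 0.19 and -0.04.

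Of 9 measured genes of neuregulin and ETS signalling, 3 were higher and 0 lower. Without the rule gene Etv5, 2 of 8 were higher. Besides Etv5, the ETS factor Etv1 was higher at 2.07 and 2.05, on 7 and 6 junction UMIs, and Spred1, an inhibitor of Ras signalling, at 1.76 and 1.91. Gabpa, the ETS subunit of GABP, was at 30.9 against 30.1 CPM and 31.0 against 28.8 CPM, a log2 ratio of 0.04 (-1.03 to 0.92) and 0.10 (-1.53 to 1.34). Etv4 and the ERK phosphatase Dusp6 were below the minimum of 20 UMIs in a muscle, and gave 18 and 15 UMIs in plantaris junction nuclei and 8 and 12 in gastrocnemius, against 0.0758 to 1.01 CPM in the other nuclei. The neuregulin receptor Erbb2 gave 0 UMIs in junction nuclei of both muscles.

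Prkar1a, the type I alpha regulatory subunit of protein kinase A, was at 1024.8 against 28.3 CPM in plantaris (5.18) and 1455.4 against 12.4 CPM in gastrocnemius (6.88). It was detected in 51 of 59 and 35 of 41 junction nuclei. The catalytic subunit Prkaca did not pass, at 5 and 0 junction UMIs. Myo5a, a myosin motor known to carry the kinase anchor with recycling receptors, was at 1.80 and 1.58. Among 12 genes of nuclear anchoring and microtubules only Syne1, a nesprin that gathers synaptic nuclei, passed in both muscles, at 1.51 and 2.53, and Syne2, Sun1 and Sun2 were between -0.36 and 0.59. The sodium channel of muscle, Scn4a, was at 0.96 and 1.39, short of the limit in plantaris. In the UFM1 pathway the rule gene Ufsp1 alone of 8 measured genes passed, and without it 0 of 7 were higher. Ufm1 itself gave 0 junction UMIs.

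Some genes for signals to nerves and neural adhesion passed, where 2.86% of all genes measured were higher and 0.743% lower. Gdnf, a survival factor for motor neurons, was at 34.0 against 0.960 CPM in plantaris (5.14, interval 3.93 to 6.29) and 49.5 against 1.29 CPM in gastrocnemius (5.26, 3.84 to 6.55), on 11 and 8 UMIs in 7 nuclei of each muscle. Tgfb2 was at 1.96 and 1.40, and Lrp4 also belongs to this list, so 3 of 13 measured genes were higher. Of these, Gdnf reached the UMI minimum only through its junction UMIs. Of 23 axon guidance and adhesion genes 4 were higher and 1 lower. The repellent Sema3a was at 3.13 and 4.21 and netrin Ntn1 at 3.96 and 4.15, and Lrfn5 is described with the genes outside these roles. Slit3 was at 1.34 and 2.02, but 55 of its 94 plantaris and 19 of its 46 gastrocnemius UMIs were in 1 nucleus of each muscle. It was at -2.18 and -2.38 without the junction nuclei that held UMIs of another cell type. The other nuclei were not filtered in that way, so these ratios are not like for like. The adhesion gene Cadm1 was lower, at 136 against 443 CPM (-1.70) and 80.5 against 635 CPM (-2.98).

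**Figure D3:**
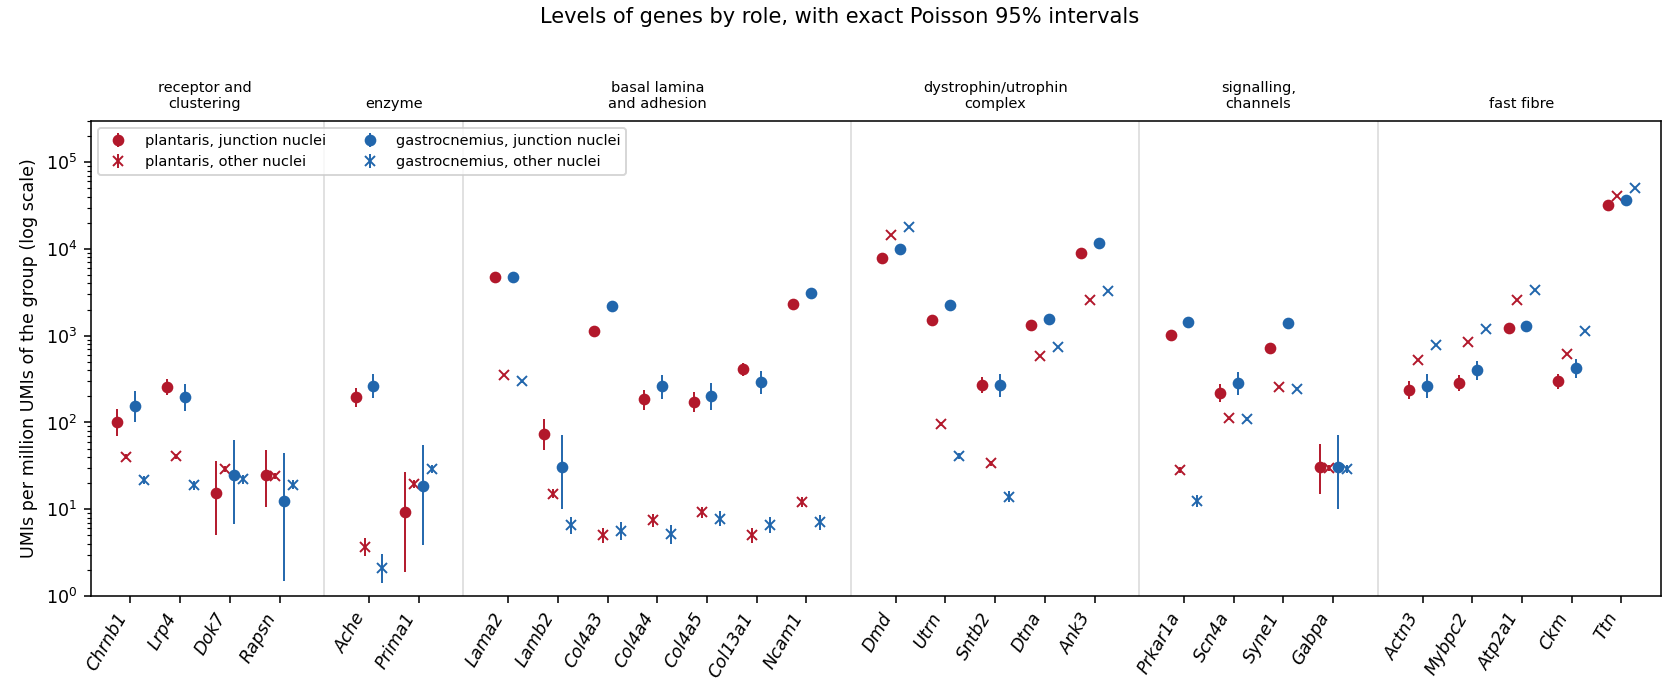
Level of genes by role in junction nuclei (circles) and other nuclei (crosses) of plantaris (red) and gastrocnemius (blue), in CPM on a log axis, with exact Poisson 95% intervals that cover counting error only. Col4a3, Ncam1, Utrn and Prkar1a stand far above the other nuclei, Rapsn and Gabpa do not, and Actn3, Mybpc2 and Ckm lie below.

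Outside those roles, Tafa4, which encodes a secreted chemokine-like protein, stood highest by the interval bound nearest 0 in the weaker muscle. It was at 1796.5 against 1.47 CPM in plantaris, a log2 ratio of 10.26 (9.72 to 10.85), and at 2700.2 against 2.12 CPM in gastrocnemius, 10.31 (9.76 to 10.92). It was held by 43 of 59 and 30 of 41 junction nuclei, with up to 61 and 77 UMIs in 1. Ano4, of the family of calcium-dependent lipid scramblases and chloride channels, was at 2441.7 against 5.86 CPM (8.70) and 2495.9 against 3.41 CPM (9.51). Of the 11 genes that earlier surveys or the account of the whole series had linked to junctions, 8 were higher and 1 lower.

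Among the next were 2 enzymes that act on sugar chains. B4galnt3, which builds the LacdiNAc sugar, was at 469 against 0.657 CPM in plantaris (9.48) and 520 against 0.986 CPM in gastrocnemius (9.04). Hs6st2, a heparan sulfate 6-O-sulfotransferase, was at 2330.5 against 11.9 CPM (7.62) and 2056.1 against 6.67 CPM (8.27), in 53 and 37 junction nuclei. Rps6ka1, a kinase activated by ERK, was at 8.96 and 9.73, and Tbx21, a T-box factor best known from T helper cells, at 8.98 and 8.35. Tbx21 rests on 33 and 28 UMIs in 17 and 14 nuclei. Cacna2d3, an auxiliary subunit of calcium channels, was at 7.5 and 9.15. Epb41l4a of the band 4.1 family was at 7.82 and 8.65, Cfap54 at 7.4 and 9.35, and the long noncoding RNA Gm13387 at 8.81 and 10.81.

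The cytoskeletal genes reported earlier at junctions also differed. Phldb2, which encodes LL5beta, an organiser of receptor clusters and microtubule ends, was at 1108.2 against 7.93 CPM in plantaris (7.13) and 2378.2 against 8.26 CPM in gastrocnemius (8.17). Pdzrn4, related to an E3 ligase that acts on MuSK, was at 8.52 and 8.36, and Vav3, an activator of small GTPases, at 5.72 and 5.57. Gramd1b, a sterol transfer protein, was at 1793.4 against 79.7 CPM (4.49) and 2093.3 against 22.1 CPM (6.56). The ratio was smaller in plantaris, where the other nuclei held more of it. Ryr3, a calcium release channel, was at 512 against 172 CPM (1.57) and 1114.8 against 15.2 CPM (6.20), so that it was lower in plantaris than in gastrocnemius junction nuclei and higher in the other nuclei of plantaris. Kcnh7, a potassium channel, gave 0 UMIs in junction nuclei, against 34.3 CPM in the other nuclei of plantaris and 38.7 CPM in those of gastrocnemius. Its log2 ratio was -1.89 or lower and -1.06 or lower, with 3 counts in place of 0.

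Some of these genes were in most junction nuclei and others in a few at high counts. Lrfn5, a synaptic adhesion molecule, was at 485 against 0.657 CPM in plantaris (9.53) and 539 against 1.59 CPM in gastrocnemius (8.40), yet only 14 of 59 and 11 of 41 junction nuclei held it, with up to 31 and 18 UMIs. Nell1, a secreted protein, was at 8.31 and 8.85 from 13 and 12 nuclei, with up to 28 and 34 UMIs. Both were held by 8 plantaris and 6 gastrocnemius junction nuclei, and neither by 40 and 24. Col4a3 by contrast was in 51 of 59 and 38 of 41.

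After thinning to 2000 UMIs, B4galnt3, Rps6ka1, Tbx21, Gm13387 and Tafa4 were the 5 genes outside the rule with the highest ratio of the share of junction nuclei that held a gene to the share of other nuclei. The ratio was taken over 50 plantaris and 33 gastrocnemius junction nuclei deep enough to be thinned, with a count under 3 of the other nuclei set to 3. It lay between 173 and 619 for these 5 in the 2 muscles and was 93.5 and 112 for Chrne. The 5 were chosen as the highest on this ratio, so their high rank was built into the choice. For Gm13387 and Tbx21 in both muscles and B4galnt3 in gastrocnemius, under 3 other nuclei held the gene, so the ratio rests on that setting. Of the 5, all but Tafa4 reached the UMI minimum only through their junction UMIs. Chrne was detected in 68.0% of junction and 0.727% of other nuclei in plantaris, and in 48.5% and 0.434% in gastrocnemius. B4galnt3 was in 60% against 0.0970% and in 57.6% against 0.0620%. Tafa4 was in 72.0% against 0.145% and in 69.7% against 0.403%. Tafa4 and Chrne were held together by 28 of the 50 thinned plantaris nuclei and by 10 of the 33 in gastrocnemius.

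Among the lowest genes in junction nuclei were some of energy metabolism and of fast contraction. The other nuclei had to hold 10 Myh UMIs and junction nuclei only 3, so the groups were not chosen alike for myosin transcripts. With 10 or more asked of junction nuclei too, 65 genes were lower, among them 57 of the 82. Of the 15 lower genes among those named or listed, 13 kept their call. The part of the unlike minimum in the values below was not tested further. Map2k6, which activates p38 kinases, was at 108 against 488 CPM in plantaris, -2.17 (-2.70 to -1.70), and 99.1 against 686 CPM in gastrocnemius, -2.79 (-3.60 to -2.09). Pfkfb3, which makes an activator of glycolysis, was at -1.79 and -2.21, and Gpt2, the mitochondrial alanine aminotransferase, at -1.96 and -2.63. Phka1, a subunit of phosphorylase kinase, was at 855 against 2416.2 CPM (-1.50) and 1362.5 against 4126.1 CPM (-1.60). Gdap1, a protein of the mitochondrial outer membrane, was at -2.04 and -2.68, the kinase Mylk4 at -1.41 in both muscles, and Gm13490, a predicted gene, at -1.53 and -2.13.

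Of 13 fast sarcomere genes 3 were lower and 0 higher, where 0.743% of all genes measured were lower. Their median was -0.55 in plantaris and -0.83 in gastrocnemius. The 3 were Actn3, the fast alpha-actinin (-1.15 and -1.56), Mybpc2, the fast myosin-binding protein C (-1.55 and -1.57), and Atp2a1, the fast calcium pump (-1.06 and -1.36). Muscle creatine kinase Ckm was at -1.04 and -1.42, and titin at -0.36 and -0.45. Of 15 genes of glycolysis and glycogen 1 was lower (Phka1), and of 21 genes of the respiratory chain and citrate cycle 0 were higher or lower. The median of the respiratory list was -0.37 and -0.49, and none of the 13 members behind it lay above 0. The oxidative coactivator Ppargc1a did not pass, at 620 against 1220.1 CPM (-0.98) and 403 against 575 CPM (-0.52).

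Junction nuclei were led by the fast myosin Myh4 in both muscles. Of the Myh transcripts, Myh4 was the most abundant in 50 of 59 plantaris junction nuclei (84.7%, interval 73.0 to 92.8) and in 40 of the 40 gastrocnemius junction nuclei without a tie (91.2 to 100). Among the other nuclei it led in 76.6% in plantaris and 93.6% in gastrocnemius. Myh1 led in 6 plantaris junction nuclei (10.2%, 3.82 to 20.8) and Myh2 in 3 (5.08%, 1.06 to 14.1), against 13.3% and 10.0% of the other nuclei. Each of these intervals includes the share of the other nuclei. The slow myosin Myh7 gave 0 of 925 Myh UMIs in plantaris junction nuclei and 0 of 640 in gastrocnemius, and a limit of 3 counts allows a share of up to 0.324% and 0.469%. Of junction nuclei with at least 10 Myh UMIs, 5 of 43 in plantaris and 1 of 31 in gastrocnemius held at least 20% of each of a pair of Myh genes, against 12.9% and 2.43% of the other nuclei. The 1 in gastrocnemius was the deepest junction nucleus there (23914 UMIs), and the deepest in plantaris (41499 UMIs) was among the 5. Doublets were not removed.

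Within plantaris, the 9 junction nuclei led by Myh1 or Myh2 (44862 UMIs) were set against the 50 led by Myh4 (279096 UMIs), a comparison chosen after values had been seen. Outside the rule, Prkar1a was at 1025.4 CPM in Myh1- or Myh2-led and 1024.7 CPM in Myh4-led junction nuclei (log2 ratio 0.00, interval -0.48 to 0.45), and Col4a3 at 1069.9 and 1132.2 CPM (-0.08, -0.55 to 0.36). Chrne was at 490 and 527 CPM (-0.10, -0.82 to 0.55), but it helped to choose the nuclei of both types, so a like level says nothing of the types. It was at 656 CPM in the 6 Myh1-led nuclei and at 139 CPM, on 2 UMIs, in the 3 Myh2-led nuclei. Chrnb1 gave 1 UMI in the Myh1-led, 0 in the Myh2-led and 32 in the 50 Myh4-led nuclei, and Chrnd gave 7, 1 and 11. Over all 2820 genes measured, 195 (6.91%) were more than 2-fold higher and 147 (5.21%) lower with the interval off 0. Of the 236 junction genes measured here, 15 were higher and 50 lower.

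Col25a1, a transmembrane collagen that is needed for motor nerves to enter muscle, was the clearest of the higher genes. It gave 75 UMIs in 6 of the 9 Myh1- or Myh2-led nuclei and 11 UMIs in 1 of the 50 Myh4-led nuclei, 1671.8 against 39.4 CPM (5.41, 4.49 to 6.47). Of the 75 UMIs, 73 came from the 6 Myh1-led nuclei (2393.4 CPM) and 2 from the 3 Myh2-led nuclei (139 CPM). In gastrocnemius 28 of its 33 UMIs came from the 1 nucleus with a tie, at 4 UMIs of Myh2 and 4 of Myh4. Ano4 was at 5394.3 against 1967.1 CPM (1.46, 1.23 to 1.68), and was held by all 9 and by 35 of 50. In the other nuclei of plantaris, Col25a1 was at 1.06 (-0.68 to 2.67) and Ano4 at -0.64 (-1.46 to 0.09).

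Ncam1, Lama2 and Tafa4 were lower in the Myh1- or Myh2-led nuclei. Ncam1 was at 646 against 2622.8 CPM (-2.02, -2.61 to -1.49) and Lama2 at 2340.5 against 5077.1 CPM (-1.12, -1.42 to -0.83). In the other nuclei of plantaris both had the opposite sign, at 0.86 (0.46 to 1.26) for Ncam1 and 0.72 (0.65 to 0.80) for Lama2. Tafa4 was at 624 against 1985.0 CPM (-1.67, -2.27 to -1.12), Phldb2 at -1.23 and Ache at -1.68 on 3 against 60 UMIs. Lrfn5 was at -1.40 (-2.56 to -0.44), but it was held by 1 of the 9 Myh1- or Myh2-led nuclei, with 9 UMIs, and by 13 of the 50 Myh4-led nuclei. Ryr3 was at -3.72 in junction nuclei and -3.54 in other nuclei, a like difference in both. Without the deepest plantaris nucleus, which is led by Myh4, Col25a1 was at 5.17, Ano4 at 1.22, Ncam1 at -2.25 and Lama2 at -1.31.

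**Figure D4:**
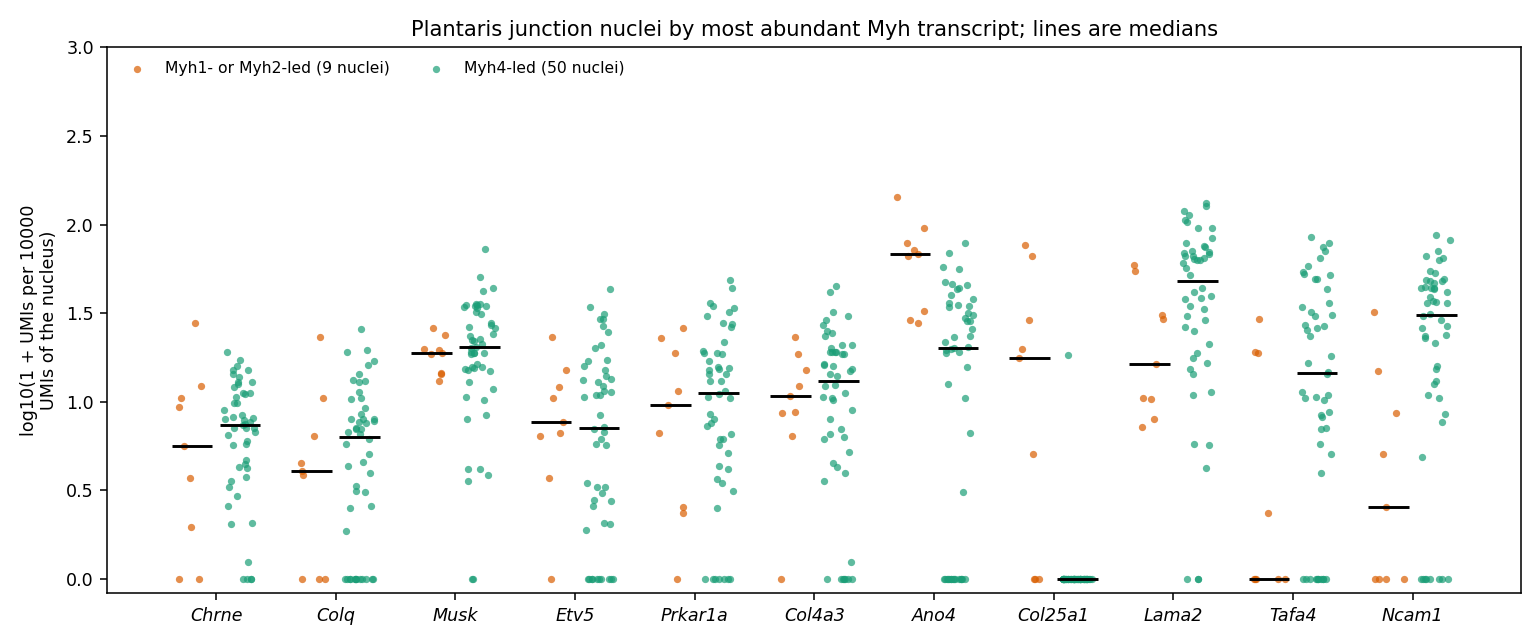
Level of 11 genes in the plantaris junction nuclei led by Myh1 or Myh2 (orange, 9 nuclei) and by Myh4 (green, 50 nuclei), as log10 of 1 plus UMIs per 10000 UMIs of the nucleus; each point is a nucleus and each line a median. Chrne, Colq, Musk, Etv5, Prkar1a and Col4a3 overlap, Ano4 and Col25a1 sit higher in the orange nuclei, and Lama2, Tafa4 and Ncam1 lower.

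Between the muscles, 191 of 3592 genes measured in junction nuclei (5.32%) were more than 2-fold higher in plantaris and 102 (2.84%) were lower, with the interval off 0. The median log2 ratio of plantaris over gastrocnemius was 0.09 in junction nuclei and 0.10 in the other nuclei. Muscle, library and animal cannot be told apart with 1 library each. Of the 16 genes named at the ends of the list, 14 had a ratio of the same sign in the other nuclei.

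Of the 8 genes named on the plantaris side, 4 encode chaperones or their partners. Hsp90aa1 gave 42 UMIs in 30 of 59 plantaris junction nuclei and 0 in gastrocnemius (log2 ratio at least 2.80), against 44.2 and 8.11 CPM in the other nuclei (2.45). Cryab, a small heat-shock protein, gave 41 and 0 UMIs (at least 2.77), with 2.91 in the other nuclei. Stip1, which joins Hsp70 and Hsp90, was at 4.67 on 51 against 1 UMIs, and 2.56 in the other nuclei. Hsp90ab1 was at 228 against 31.0 CPM (2.88), and 2.06 in the other nuclei. Myh1 was at 377 against 24.8 CPM (3.93), and 1.96 in the other nuclei. Robo1 (4.83), Slc38a3 (4.32) and Prune2 (24 and 0 UMIs) rest on 1 nucleus for 50 of 57, 19 of 40 and 20 of 24 plantaris UMIs. Without nuclei that held 2 or more UMIs of another cell type, 4 of these 8 genes kept their call, as did 4 of the 8 named on the gastrocnemius side.

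Lower in plantaris were Rbm20, a splicing factor of titin, at 222 against 1090.0 CPM (-2.29, and -2.48 in the other nuclei), and the zinc transporter Slc39a12 at 71.0 against 297 CPM (-2.07). Slc39a12 was at 0.354 and 1.82 CPM in the other nuclei, so it was higher in the junction nuclei of both muscles. Mical2 was at -2.33, the myosin light chain Mylpf at -2.15, Mylk4 at -1.37 and Mmd at -2.30, and all 4 were negative in the other nuclei too. Cacnb2, a calcium channel subunit, was at 9.26 against 118 CPM (-3.67, -6.07 to -1.90) but 0.63 (0.34 to 0.91) in the other nuclei, with 12 of its 19 gastrocnemius UMIs in 1 nucleus. Slc16a6, of the monocarboxylate transporter family, was at 49.4 against 223 CPM (-2.17, -3.12 to -1.29) but 1.75 (1.31 to 2.23) in the other nuclei, and its UMIs came from 13 and 21 nuclei with at most 2 and 5 each.

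Of the rule genes, Colq was lower in plantaris at -1.29 (-1.62 to -0.96), and its ratio in the other nuclei was -1.34 (-2.33 to -0.40). Chrne was at 0.67 (0.22 to 1.14), Musk at -0.18 and Etv5 at 0.23, all short of 2-fold. Of the genes outside the rule that were higher in junction nuclei of both muscles, 271 were measured between muscles, and 10 were higher and 21 lower in plantaris. Over all 3592 genes measured, 5.32% were higher and 2.84% lower in plantaris. Ano4 was at -0.03 and Lama2 at -0.02. Lower in plantaris were Phldb2 at -1.10 (-1.31 to -0.89), Ryr3 at -1.12 (-1.43 to -0.81) and the lipid phosphatase Plpp3, named after its values were seen, at -1.22 (-1.50 to -0.94), while Col4a3 was at -0.97 (-1.19 to -0.76), short of 2-fold. With Myh4-led nuclei alone, all 16 genes named at the ends of this comparison kept their call, while Ppargc1a was at -0.36, against 0.62 over all junction nuclei. These Myh4-led nuclei include the deepest nucleus of each muscle, and the one in plantaris held 50 Robo1 and 18 Myh1 UMIs. Without the deepest nuclei, 6 of the 8 genes named on the plantaris side and 7 of the 8 on the gastrocnemius side kept their call. With 4 or more rule genes 5 and 6 did, and the same numbers did without the top 5% of UMIs.

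**Figure D5:**
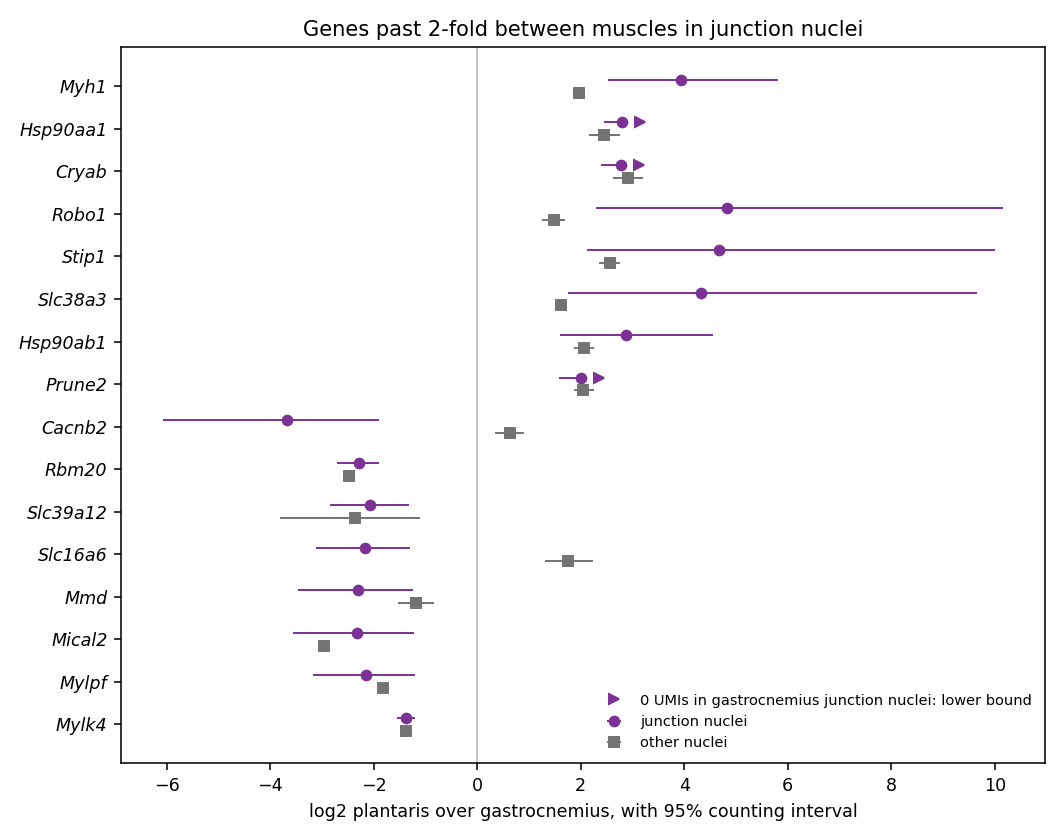
Log2 ratio of plantaris over gastrocnemius with 95% counting intervals for the 8 highest and 8 lowest genes called in junction nuclei (purple circles), beside the same ratio in other nuclei (grey squares); arrowheads mark lower bounds where gastrocnemius junction nuclei gave 0 UMIs. Most pairs lie on the same side of 0, and Cacnb2 and Slc16a6 lie on opposite sides.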

How the data were processed

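Gene counts per nucleus were deposited by the authors as 1 table of UMI counts for both muscles, with a second table that assigns each barcode to a muscle, made with Cell Ranger 6.0.1 on mm10 per the submitters' processing notes. For the annotation, the counting of introns and the calling of nuclei, the method is not given in the sources used here. The table held 32285 genes, and no UMI filter beyond the deposited one was applied. No doublet caller was run, so doublets remain. Thinning and the leaving out of junction nuclei with UMIs of another cell type bear on them.

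UMIs were summed over the nuclei of each group and muscle and divided by the group's total (CPM). Ratios of junction over other nuclei had exact conditional binomial 95% intervals, shares had Clopper-Pearson intervals and levels had exact Poisson intervals (Python 3.11.15, numpy 2.4.6, scipy 1.17.1, pandas 2.3.3, matplotlib 3.10.9), which cover counting error only. Nuclei of 1 library are not replicates, so no test was run. A count of 0 was set to 3 where that gave a bound. A gene was measured with 20 or more UMIs over junction and other nuclei in each muscle, between muscles over the junction nuclei of both, and by fibre type over plantaris junction nuclei. It was called past 2-fold with the interval off 0. The code was checked on simulated counts. Promoters came from RefSeq on GRCm38.p6, whose coordinates are those of mm10, and gene positions from GENCODE vM21.

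The text names genes of the lists, and outside them the 15 highest and 8 lowest genes by the interval bound nearest 0 in the weaker muscle, the 8 highest and 8 lowest between muscles and the 5 genes with the highest ratio of shares of thinned nuclei. Members and lists were chosen with earlier results of these data known. The comparison by fibre type, the check on 6 genes and 2 alternatives (the deepest nucleus left out, Myh4-led nuclei alone) were chosen after values had been seen. Some items are not reported here.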

Additional observations from a re-analysis of the deposited data

Results flagged for a closer look

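Cacnb2 was at a log2 ratio of -3.67 for plantaris over gastrocnemius in junction nuclei and 0.63 in the other nuclei, and was singled out because the intervals lay on opposite sides of 0. The difference between these ratios was not tested, and 12 of its 19 UMIs in gastrocnemius junction nuclei were in 1 nucleus. Without nuclei that held 2 or more UMIs of another cell type, it had too few UMIs for a ratio. Slc16a6 was at -2.17 in junction nuclei and 1.75 in the other nuclei for the same reason, with its UMIs spread over 13 plantaris and 21 gastrocnemius junction nuclei. That difference was not tested either.

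Lama2 and Ncam1 had opposite signs by fibre type in plantaris. Lama2 was at -1.12 for Myh1- or Myh2-led over Myh4-led junction nuclei and at 0.72 in the other nuclei, and Ncam1 at -2.02 and 0.86. These rest on 9 nuclei led by Myh1 or Myh2, and the differences were not tested.

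Nuclei outside the comparisons also held the rule genes. In plantaris 9 and in gastrocnemius 2 nuclei held at least 3 of the 6 rule genes with under 3 Myh UMIs. They had 565 to 5749 UMIs in plantaris (median 3375) and 1114 to 2223 in gastrocnemius (median 1668.5), and a median of 5 of the 6 genes used to check the label in both muscles.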

How the results depend on the processing

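The number of genes higher in junction nuclei, 315, lay between 249 and 379 under every alternative tried, within 1.5 times of its value. The genes themselves changed more, and 202 of the 315 remained called with 2 or more rule genes and 231 without the top 5% of UMIs. The number lower, 82, was 205 with the mean of each nucleus's CPM, 124 with median-ratio scaling, 125 with 4 or more rule genes and 1 with 2 or more. Between muscles the 191 genes higher in plantaris were 293 with nucleus means, 69 with a minimum of 50 UMIs, 635 with 2 or more rule genes, 117 without nuclei with 2 UMIs of another cell type and 116 without the top 5% of UMIs. The 102 lower were 163 with nucleus means and 46 with a minimum of 50 UMIs. Without junction nuclei that held UMIs of another cell type, 201 of the 315 and 45 of the 82 remained called, as did 42 of the 191 and 29 of the 102. The other nuclei were not filtered in this alternative. The share of plantaris nuclei that met the rule, 0.908%, was 0.651% thinned, 0.647% with 4 or more rule genes and 2.77% with 2 or more, and the 0.734% of gastrocnemius was 0.484% with 4 or more and 2.44% with 2 or more. Slit3 changed sign, to -0.75 in plantaris with 4 or more rule genes and -1.25 in plantaris without the top 5%. It was at -2.18 in plantaris and -2.38 in gastrocnemius without the junction nuclei that held UMIs of another cell type. Kcnh7 changed sign in gastrocnemius, to 1.15 with 2 or more rule genes. The causes were not tested. Reweighting by Myh type was not run between muscles, since gastrocnemius junction nuclei were led by Myh4. No paired analysis was possible because each muscle has 1 library. With 59 and 41 nuclei, genes under about 20 UMIs could not be measured, and intervals leave out variation between animals.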
